A study of Mus musculus with 9 samples.

Results

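The genes followed here are *Dio2*, which encodes the type 2 iodothyronine deiodinase, and 5 partners of the thyroid hormone pathway, namely the deiodinase *Dio3*, the nuclear receptors *Thra* and *Thrb*, and the receptor target genes *Klf9* and *Hr*. Members were taken as all probe sets that the annotation of the array pairs with 1 of these 6 symbols. This gave 16 of the 45037 probe sets compared and 5 of the 18193 genes with a probe set of their own. *Dio2* had 3 probe sets, *Thra* 3, *Thrb* 1, *Klf9* 7 and *Hr* 2, and no probe set was named *Dio3* in the annotation used. *Dio2* was selected on its rise at 24 h on these same arrays, and the other genes were chosen by their place in its pathway, so the levels of *Dio2* at 24 h are described without a test.

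MC3T3-E1 is an established preosteoblast line from the skull vault of newborn C57BL/6 mice. All cells were first grown for 14 days with ascorbic acid and β-glycerophosphate, then reseeded and cultured for 24 h. They were mock treated (control), or received low-intensity pulsed ultrasound (LIPUS) at 30 mW/cm2 for 20 min and were harvested after a further 6 h (LIPUS 6 h) or 24 h (LIPUS 24 h), with 3 arrays in each group. Arrays with the same replicate number were read as 1 of the 3 experiments of the study. The labels do not say whether these were separate cultures. P-values measure only how the differences between groups vary among these experiments, since the fit takes off the level of each experiment. How long the control cells were cultured is not given in the sources used here, and LIPUS and time in culture cannot be told apart in any comparison with the control. The same holds between LIPUS 24 h and LIPUS 6 h, since no mock culture is labelled for either time.

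Thyroid hormone circulates mainly as thyroxine, a prohormone with low activity at its receptors. The Dio2 enzyme, a selenoprotein of the endoplasmic reticulum, removes an iodine of the outer ring and makes the active hormone triiodothyronine inside the cell, whereas the Dio3 enzyme inactivates both hormones. The receptors bind DNA as partners of retinoid X receptors and switch target genes between repression and activation. In bone, Dio2 activity is known from osteoblasts, and hormone made there acts locally. The *Dio2* gene is known for its activation by cyclic AMP through CREB. Hormone levels and enzyme activity were not measured here, so every value below is a transcript level.

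The start of *Dio2* is shown because the cyclic AMP response element in it is the best-known control sequence of this gene and because genes of the cyclic AMP pathway are described further on. The 250 bases before the start site lie at chr12:90739039-90739288 on the minus strand of GRCm38.p6 (RefSeq), and capitals mark the palindromic cyclic AMP response element, at -95 to -88 from the start site.
*Dio2*: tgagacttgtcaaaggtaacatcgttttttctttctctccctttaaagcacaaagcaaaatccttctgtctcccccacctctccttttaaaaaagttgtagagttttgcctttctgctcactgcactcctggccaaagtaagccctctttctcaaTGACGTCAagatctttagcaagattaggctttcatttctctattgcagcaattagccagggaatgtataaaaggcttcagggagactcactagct
The palindrome TGACGTCA was found on either strand in 508 of 32851 mouse promoters of this length, or 1.55%, so that it is an uncommon feature. A TATA box, TATAAA on the strand of the gene, stood at -30 to -25, and this motif was in 7.59% of promoters. *Klf9* held only the shorter core TGACG, at -46 to -42, in the stretch at chr19:23141150-23141214 on the plus strand of the same build, where capitals mark it.
*Klf9*: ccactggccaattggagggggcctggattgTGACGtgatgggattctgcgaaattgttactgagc
The shorter core was found on either strand in 17.8% of promoters, and every palindrome contains it. *Thrb* held it in 1 of its 2 promoters, at -56 to -52, together with AGGTCA, the core of a thyroid hormone response element, at -184 to -179. That core was found on either strand in 14.0% of promoters. No promoter of *Dio2*, *Dio3*, *Thrb* or *Klf9* held a direct repeat of AGGTCA with 4 bases between its copies on either strand, which 5 of the 32851 promoters did, or 0.0152%. The *Dio3* promoter held a TATA box at -31 to -26 and neither form of the cyclic AMP element. These matches describe letters in a window, not binding.

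Signals were log2 values that the authors derived by robust multi-array averaging (RMA), and the median of an array lay between 4.89 and 5.15. Of the 16 probe sets, 10 were above the array median on all 9 arrays and 3 were below it on all 9. In experiments 2 and 3 many probe sets carried an identical value on all 3 arrays, 36.3% and 28.1% of them, against 0.224% in experiment 1, and 4 of the 16 member probe sets did so in each of these experiments. A ratio of exactly 1 in experiment 2 or 3 is therefore common. Such probe sets cannot be higher in all 3 experiments, which lowers the shares of all probe sets that are given for this below. Of 12 preosteoblast markers 10 were measured, with none below the array median on all arrays and none changed at 24 h, beside 4.14% of all genes. The log2 fold change of *Actb*, a reference gene, was -0.02 at 24 h (limma adjusted p = 0.701). Differences were tested with limma, with the experiment as a block, and an adjusted p under 0.05 over all probe sets counted as a change.

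Transcripts of *Dio2* were about 3-fold higher at 24 h after LIPUS than in mock-treated cells, and at 6 h they were still close to the control. The probe set with the highest *Dio2* signal (1418937_at) had log2 signals of 6.89, 7.18 and 6.65 in control cells of experiments 1, 2 and 3, of 6.93, 7.40 and 6.91 at 6 h, and of 8.70, 8.90 and 8.38 at 24 h. Each array at 24 h was above every array of the other groups, while the arrays at 6 h and the control arrays overlapped. The fold at 24 h over control was 3.51, 3.29 and 3.32 in the 3 experiments, a mean of 3.37 ± 0.118 (SD, n = 3). Set against LIPUS 6 h, the fold at 24 h was 3.00 ± 0.345 (SD, n = 3). The level in all 3 groups was highest in experiment 2 and the rise at 24 h was nearly equal in the 3 experiments.

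At 6 h the difference from control, which shares its control arrays with the contrast that selected *Dio2* and is also given without a test, was positive in 3 of 3 experiments at 1418937_at, as was that of 6.48% of all probe sets. The log2 ratios of LIPUS 6 h to control were 0.05, 0.22 and 0.26. Their mean was 0.18. Over the whole array 0 of 45037 probe sets changed at 6 h (0.00%), against 1575 at an unadjusted p under 0.05. When experiment 3 was left out, 38 probe sets passed limma's test at this time, with no probe set of *Thra*, *Thrb*, *Klf9* or *Hr* among them. The methods' t-test and a paired test gave 0 after adjustment, and 53 and 998 at an unadjusted p under 0.05.

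The other *Dio2* probe sets did not all move to the same extent. The probe set 1426081_a_at had log2 signals of 5.15, 5.76 and 5.34 in control cells, of 5.31, 5.67 and 5.38 at 6 h, and of 6.29, 6.54 and 6.34 at 24 h. Its folds at 24 h over control were 2.21, 1.71 and 2.00, with a mean of 1.97 ± 0.248 (SD, n = 3), and the arrays at 24 h again lay above all control arrays. The third probe set, 1418938_at, had log2 signals of 4.85, 5.55 and 5.32 in control cells, of 5.13, 5.55 and 5.30 at 6 h, and of 5.31, 6.06 and 5.38 at 24 h. Its folds at 24 h over control were 1.37, 1.43 and 1.04, a mean of 1.28 ± 0.210 (SD, n = 3), and here the groups overlapped. Its mean log2 ratio was 0.34, and it was 0.26 without experiment 2 and 0.48 without experiment 3. Its signal was near the middle of the array, below the array median on 1 of the 9 arrays. Thus 2 of the 3 *Dio2* probe sets were at 1.5-fold or more above control in all 3 experiments, where 0.0955% of all probe sets were. This share is printed for the scale of the count only, since the choice of *Dio2* used this contrast. The log2 fold changes at 6 h were 0.04 at 1426081_a_at and 0.08 at 1418938_at.

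**Figure D1:**
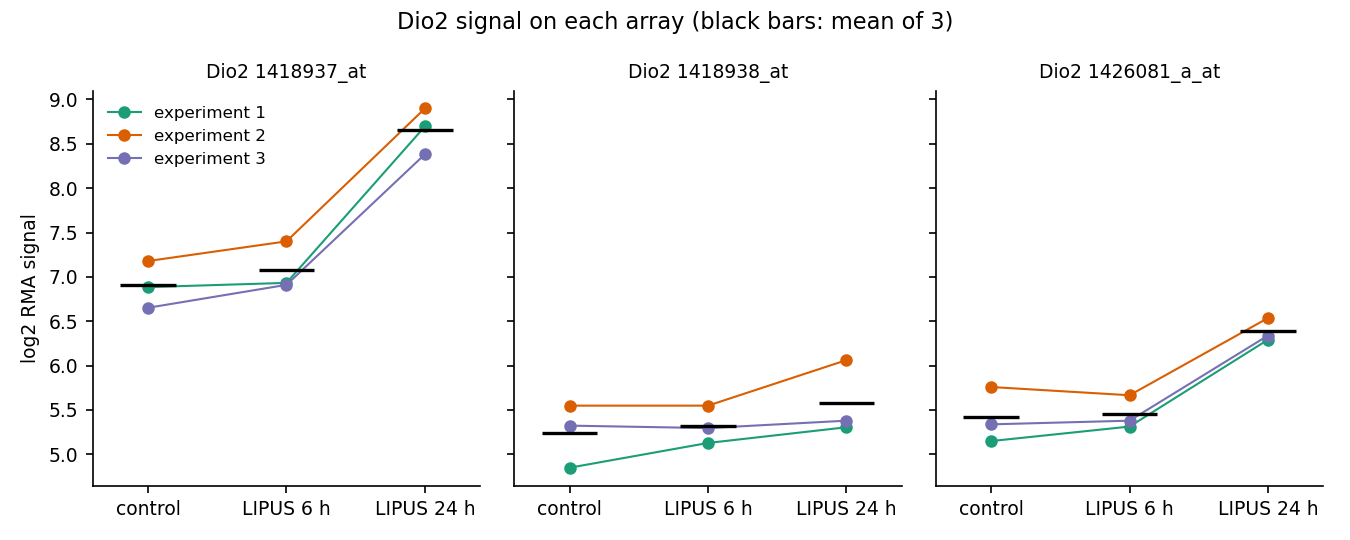
Log2 RMA signal (vertical axis) of the 3 *Dio2* probe sets in control, LIPUS 6 h and LIPUS 24 h cells (horizontal axis), with a point for each array, a line for each experiment and a black bar at the mean of 3. The points at 24 h stand above the others at 1418937_at and 1426081_a_at, and overlap with the others at 1418938_at.

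*Dio3*, the inactivating enzyme, has no values here. It lies in an imprinted domain with *Dlk1* and *Meg3*. Of 10 listed genes of this domain and its flanks, 8 were measured. Among them *Wdr25*, *Wars*, *Ppp2r5c* and *Dync1h1* lie beside the domain. The 3 measured genes below the array median on all arrays, *Dlk1*, *Rian* and *Mirg*, lie within it, so the count says little of the domain itself. *Meg3*, also within it, was below the array median on 0 of the arrays. Its log2 fold change at 24 h was -0.17 (limma adjusted p = 0.382). Of the 8, 0 changed at 24 h, beside 4.14% of all genes with 1 probe set each, and the median log2 fold change was -0.06. *Dio3os*, a transcript on the strand opposite to *Dio3*, was looked at after its values were seen, since it is the nearest measured neighbour. Its log2 ratios of LIPUS 24 h to control were -0.14, 0.00 and -0.23 (limma adjusted p = 0.488). It gives no measure of *Dio3* itself.

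None of the 4 receptor probe sets passed the test at 24 h or at 6 h. The *Thra* probe set with the highest signal (1454675_at) had log2 signals of 8.91, 9.14 and 8.86 in control cells, of 8.94, 9.22 and 8.92 at 6 h, and of 9.13, 9.22 and 9.02 at 24 h. The ratio of LIPUS 24 h to control was above 1 in 3 of 3 experiments, as for 10.3% of all probe sets, while the ranges of the groups overlapped. The log2 fold change was 0.15 (95% confidence interval 0.06 to 0.24), and it did not pass the test (limma adjusted p = 0.13). The other *Thra* probe sets had log2 fold changes at 24 h of 0.04 at 1426997_at (limma adjusted p = 0.711) and 0.03 at 1443952_at (limma adjusted p = 0.758). In 2 experiments all 3 arrays shared a value at 1426997_at, and in 1 experiment at 1443952_at.

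*Thrb*, the second receptor gene, was measured by 1 probe set (1422202_at) that lay below the array median on all 9 arrays. Its log2 signals were 4.20, 4.46 and 3.66 in control cells, 4.24, 4.46 and 3.66 at 6 h, and 4.09, 4.46 and 3.66 at 24 h. Experiment 1 alone held a difference, because experiments 2 and 3 had the same value on their 3 arrays. The log2 fold change at 24 h was -0.04 (95% confidence interval -0.18 to 0.10; limma adjusted p = 0.814). At this dim signal a change of *Thrb* was not detectable, which differs from showing that there was none.

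Of the 2 target genes, *Klf9* was slightly higher at 24 h and *Hr* slightly lower. *Klf9* encodes a Krüppel-like transcription factor that thyroid hormone induces in several tissues, and glucocorticoids induce it as well. At its probe set with the highest signal (1428288_at) the log2 signals were 10.39, 10.66 and 10.12 in control cells, 10.39, 10.66 and 10.15 at 6 h, and 10.58, 10.84 and 10.38 at 24 h. Within each experiment the array at 24 h was highest, whereas across experiments the groups overlapped. The fold of LIPUS 24 h over control was 1.16 ± 0.037 (SD, n = 3), with a log2 fold change of 0.21 (95% confidence interval 0.16 to 0.27; limma adjusted p = 0.00748). The difference of LIPUS 24 h from LIPUS 6 h was 0.20 on the log2 scale (limma adjusted p = 0.011), and that of LIPUS 6 h from control was 0.01 (limma adjusted p = 0.971). Without experiment 1 the adjusted p at 24 h was 0.305 and without experiment 2 it was 0.191, at log2 fold changes of 0.22 and 0.23, and without experiment 3 it was 0.0222.

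The remaining 6 *Klf9* probe sets did not pass the test at 24 h. Of all 7 probe sets, 3 were higher at 24 h than control in all 3 experiments, as were 10.3% of all probe sets. These were 1428288_at, 1456341_a_at and 1436763_a_at. The probe set 1456341_a_at had log2 signals of 10.12, 10.31 and 10.19 in control cells, of 10.21, 10.52 and 10.24 at 6 h, and of 10.36, 10.57 and 10.28 at 24 h, and its log2 fold change at 24 h was 0.20 (limma adjusted p = 0.0599). At 1436763_a_at the log2 fold change was 0.31 (limma adjusted p = 0.0744), and at 1428289_at it was 0.16 (limma adjusted p = 0.227). At 1422264_s_at the log2 ratios of LIPUS 24 h to control were -0.08, -0.01 and 0.46, so that experiment 3 alone carried its mean of 0.12. The probe sets 1436952_at and 1452723_at were below the array median on all 9 arrays and had log2 fold changes of 0.03 and -0.13. Leaving out experiment 3 brought 1428289_at to an adjusted p of 0.0215 and 1456341_a_at to 0.0202.

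*Hr* encodes hairless, a corepressor that binds the thyroid hormone receptors and is itself induced by the hormone in rodent brain. At 1435950_at its log2 signals were 5.76, 5.87 and 5.50 in control cells, 5.62, 5.97 and 5.60 at 6 h, and 5.41, 5.45 and 5.17 at 24 h. Every array at 24 h was below every array of the other groups, which was so against control, in either direction, for 1.47% of all probe sets. The fold of LIPUS 24 h over control was 0.776 ± 0.025 (SD, n = 3), and the log2 fold change was -0.37 (95% confidence interval -0.53 to -0.20; limma adjusted p = 0.0452). The log2 difference of LIPUS 24 h from LIPUS 6 h was -0.39 (limma adjusted p = 0.0442), and that of LIPUS 6 h from control was 0.02 (limma adjusted p = 0.978). Without experiment 1, 2 or 3 the adjusted p at 24 h was 0.237, 0.449 and 0.0907, at log2 fold changes of -0.38, -0.34 and -0.38. The second *Hr* probe set, 1422110_at, had log2 signals of 4.99, 5.17 and 4.66 in control cells, of 5.21, 5.11 and 4.66 at 6 h, and of 5.13, 5.11 and 4.66 at 24 h, and was below the array median on 5 of 9 arrays. Its log2 fold change at 24 h was 0.02 (95% confidence interval -0.13 to 0.18; limma adjusted p = 0.90), so the fall of *Hr* rests on 1 of 2 probe sets.

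Counted together, the 13 probe sets of *Thra*, *Thrb*, *Klf9* and *Hr* held 1 higher and 1 lower at 24 h against control, where 1.80% of all probe sets were higher and 0.933% lower, or 2.73% changed. Their median log2 fold change was 0.04, beside 0.001 over all probe sets. At 6 h 0 of 13 changed (0.00% of all probe sets), with a median of 0.02. Against LIPUS 6 h, 1 was higher and 1 lower at 24 h, where 1.14% and 0.879% of all probe sets were, or 2.02% in either direction. In no experiment did any of the 13 reach 1.5-fold at 24 h, the size that 2 *Dio2* probe sets exceeded in every experiment.

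**Figure D2:**
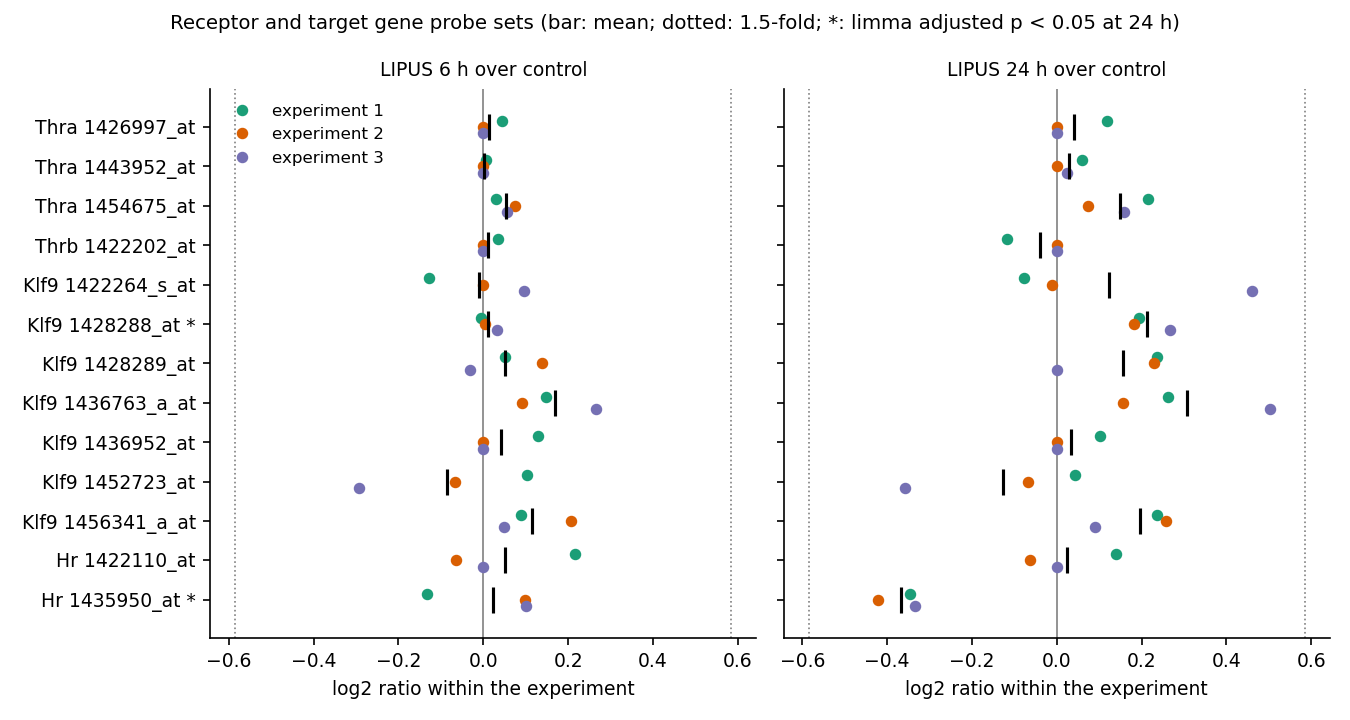
Log2 ratio of LIPUS 6 h to control (left) and of LIPUS 24 h to control (right) within each experiment (horizontal axes) for the 13 probe sets of *Thra*, *Thrb*, *Klf9* and *Hr* (rows), with a point for each experiment, a bar at the mean of 3, dotted lines at 1.5-fold and a star at an adjusted p under 0.05 at 24 h. All points lie inside the dotted lines, with *Klf9* 1428288_at to the right and *Hr* 1435950_at to the left of 0 at 24 h.

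Across the 9 arrays, with the mean of each experiment taken off, *Klf9* 1428288_at had a Pearson correlation of 0.98 with *Dio2* 1418937_at, *Dio2* 1426081_a_at of 0.99, *Thra* 1454675_at of 0.87 and *Hr* 1435950_at of -0.92. The arrays share their experiments and treatments, so these values only describe the shape. For *Dio2*, *Klf9* and *Hr* it was close to control at 6 h and displaced at 24 h. *Thra* 1454675_at had log2 fold changes of 0.05 at 6 h and 0.15 at 24 h, so its shape was less clear. Among probe sets above the median signal that differed by 1.5-fold or more on average at 24 h, the genes nearest to *Dio2* were *Apod* (r = 0.999), *Matn4* (0.999), *F13a1* (0.997), *Igf2* (0.996) and *Cd200* (0.995). These encode a lipocalin, a matrilin of the matrix, the catalytic subunit of coagulation factor XIII, an insulin-like growth factor and a membrane glycoprotein. Their mean log2 ratios of LIPUS 24 h to control were 1.04, 0.72, 1.29, 1.05 and 0.84, against 1.75 for *Dio2*. The most opposite genes were *Id3* (r = -0.997), *Id2* (-0.995), *Tgfbi* (-0.994), *Krt14* (-0.994) and *Col2a1* (-0.991), of which *Id3* and *Id2* encode inhibitors of DNA binding. Their mean log2 ratios were -1.09, -0.96, -0.60, -0.98 and -0.82. Closeness of this kind was common, since 96 of the 106 probe sets searched had an absolute r of at least 0.9. None of the 9 of these genes with a promoter entry held the palindrome TGACGTCA in a promoter window.

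**Figure D3:**
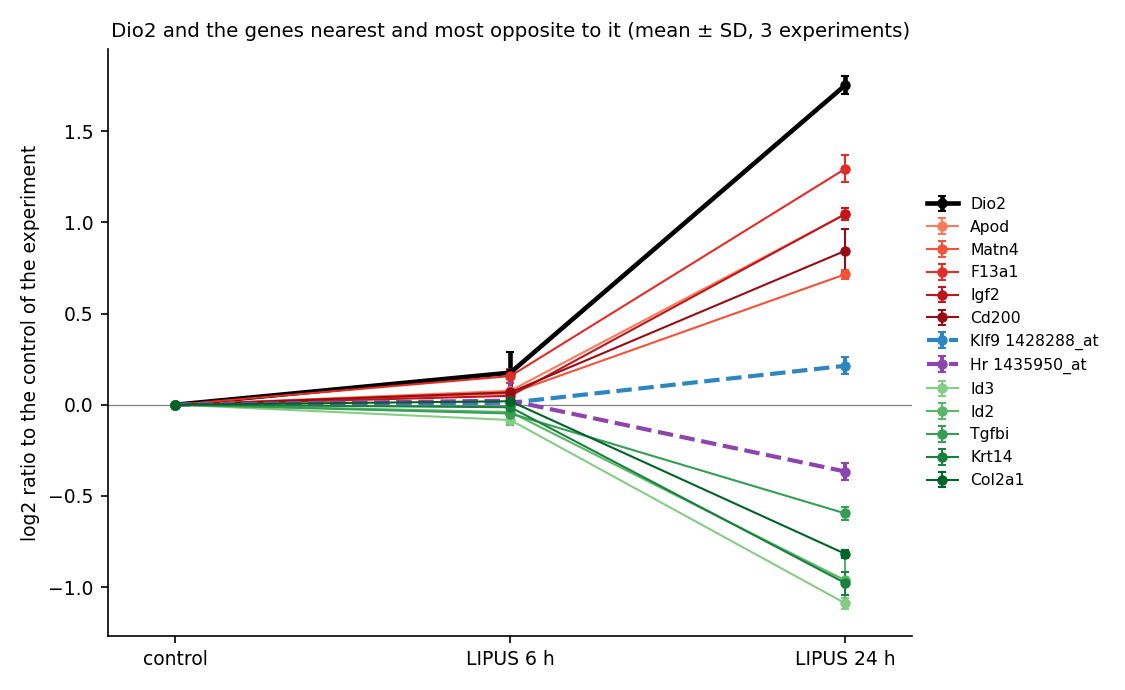
Mean log2 ratio to the control of the same experiment (vertical axis, ± SD over 3 experiments) in control, LIPUS 6 h and LIPUS 24 h cells (horizontal axis) for *Dio2* 1418937_at, the 5 genes nearest to it, the 5 most opposite genes, *Klf9* 1428288_at and *Hr* 1435950_at. All lines stay near 0 at 6 h, and *Dio2* reaches the highest value at 24 h, a mean of 1.75.

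Further genes were counted in lists, with 1 probe set for each gene. The lists cover the life of the deiodinase, the entry of the hormone, the receptors and their targets. They also cover the domain of *Dio3* and the cyclic AMP pathway. In 8 such lists 106 genes were measured, and at 24 h 7 were higher and 1 lower than in control cells, or 7.55%, beside 4.14% of all genes, of which 2.57% were higher and 1.57% lower. Their median log2 fold change was -0.002, beside 0.001 over all genes. At 6 h 0 of 106 changed (0.00% of all genes). Against LIPUS 6 h, 6 were higher and 0 lower at 24 h, or 5.66%, beside 3.24% of all genes, of which 1.75% were higher and 1.49% lower. Of the 106 genes, 8 belong to the list of the *Dio3* domain, where 0 changed at 24 h against control. The 2 cyclic AMP lists hold 15 and 17 of them, where 2 and 0 changed. The shares are therefore not those of thyroid hormone genes alone.

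No listed gene that makes or removes the Dio2 protein passed the test at its chosen probe set, where 4.14% of all genes did. At that share lists of 10 and 9 genes often hold none. The list of selenocysteine machinery, which inserts the selenium-containing residue at the active site, held 10 measured genes together with the deiodinase *Dio1*, and 0 changed at 24 h (median log2 fold change -0.01). *Secisbp2l* and *Sephs1*, its members with the highest signals, had log2 fold changes of -0.03 and 0.01 at 24 h. The Dio2 protein is short-lived, is marked for breakdown by ubiquitin ligases, among them one with the adaptor WSB1, and can be rescued by the deubiquitinases USP20 and USP33. Of the list of these turnover genes 9 of 9 were measured with 0 changed (median 0.02). The elongin genes *Elob* and *Eloc* had log2 fold changes of 0.01 and -0.03. At another *Eloc* probe set, 1436226_at, the value was 0.34 (limma adjusted p = 0.00709), so that the probe sets of *Eloc* disagree.

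Of the genes for transport and binding of the hormone, 8 of 10 were measured and 5 of these lay below the array median on all arrays. *Slc7a5*, a subunit of a large amino acid transporter that also carries thyroid hormones, was the 1 gene of the list that changed, where 4.14% of all genes did. Its log2 signals were 9.66, 9.94 and 9.38 in control cells, 9.65, 9.97 and 9.36 at 6 h, and 9.99, 10.29 and 9.71 at 24 h. It was higher at 24 h by nearly the same step in each experiment, although the groups overlapped, with a log2 fold change of 0.33 ± 0.02 (SE; limma adjusted p = 0.00123). Without experiment 1 its adjusted p was 0.172 and without experiment 2 it was 0.101. The list of receptor partners and coregulators, with retinoid X receptors and coactivators, had 16 of 18 genes measured and 0 changed (median 0.02), beside the same 4.14%. *Tbl1x* and *Thrap3*, a part of the corepressor complex and a receptor-associated protein, had log2 fold changes of 0.01 and 0.11 at 24 h.

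Among further known targets of thyroid hormone, gathered from several tissues, 23 of 24 were measured. At 24 h 4 were higher and 1 was lower, beside 2.57% and 1.57% of all genes, and the median log2 fold change was -0.05. The 4 that rose encode a growth factor, a growth factor receptor, a binding protein and a calcium pump. *Igf1*, an insulin-like growth factor, had log2 signals of 10.38, 10.43 and 10.06 in control cells, of 10.53, 10.61 and 10.14 at 6 h, and of 10.81, 10.90 and 10.56 at 24 h. All arrays at 24 h were above all control arrays, where 1.47% of all probe sets were separated in either direction. The log2 fold change was 0.47 ± 0.03 (SE; limma adjusted p = 0.00118). *Fgfr1*, a fibroblast growth factor receptor, was higher by 0.32 ± 0.03 (SE; limma adjusted p = 0.00522). *Igfbp4*, an inhibitory binding protein of insulin-like growth factors, was higher by 0.27 ± 0.04 (SE; limma adjusted p = 0.0144). *Atp2a2*, the calcium pump of the endoplasmic reticulum, was higher by 0.15 ± 0.02 (SE; limma adjusted p = 0.0159). *Me1*, the cytosolic malic enzyme that the hormone induces in rodent liver, was lower by 0.11 on the log2 scale, with a fold of 0.926 ± 0.009 (SD, n = 3; limma adjusted p = 0.0495). Of the whole list 8 genes were below the array median on all arrays, and *Thrsp*, a strongly hormone-induced gene of liver and fat that was named after its values were seen, had a log2 fold change of -0.04 (limma adjusted p = 0.851). Without experiment 1 the adjusted p of *Igf1*, *Fgfr1*, *Igfbp4* and *Atp2a2* was 0.248, 0.265, 0.534 and 0.22, and without experiment 2 it was 0.0652, 0.152, 0.22 and 0.294. *Me1* did not pass without experiment 1 (0.172), 2 (0.523) or 3 (0.137), after quantile normalization (0.053) or after median centring (0.176), and it kept its call under 1 of 9 alternatives.

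Genes of the cyclic AMP pathway, which can act on the palindrome in the *Dio2* promoter, were counted as well. Of 16 targets of cyclic AMP and CREB 15 were measured. At 24 h 2 were higher and 0 lower, beside 2.57% and 1.57% of all genes (median log2 fold change 0.01). *Nr4a1*, an orphan nuclear receptor of the early response, had log2 signals of 7.76, 7.86 and 7.36 in control cells, of 7.71, 7.90 and 7.41 at 6 h, and of 8.31, 8.54 and 8.22 at 24 h. Its arrays at 24 h were above all control arrays, where 1.47% of all probe sets were separated in either direction. Its log2 fold change was 0.70 ± 0.06 (SE; limma adjusted p = 0.00239). The study had singled out *Nr4a1* on these arrays, so its place in the count is not independent. *Per1*, a gene of the circadian clock, was higher by 0.37 ± 0.06 (SE; limma adjusted p = 0.0322), with log2 ratios of 0.43, 0.48 and 0.21. The early response genes *Fos* and *Nr4a2*, named after their values were seen, had log2 fold changes of -0.05 (limma adjusted p = 0.605) and 0.02 (limma adjusted p = 0.957). Of 22 receptors, cyclases and kinases that raise or sense cyclic AMP, 17 were measured and 0 changed (median -0.001), beside 4.14% of all genes. *Gnas* and *Prkar1a*, their members with the highest signals, had log2 fold changes of -0.03 and 0.01. Without experiment 1 the adjusted p of *Nr4a1* was 0.237 and of *Per1* 0.534, and without experiment 2 they were 0.0965 and 0.403. *Per1* had an adjusted p of 0.0704 after quantile normalization and kept its call under 3 of 9 alternatives.

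**Figure D4:**
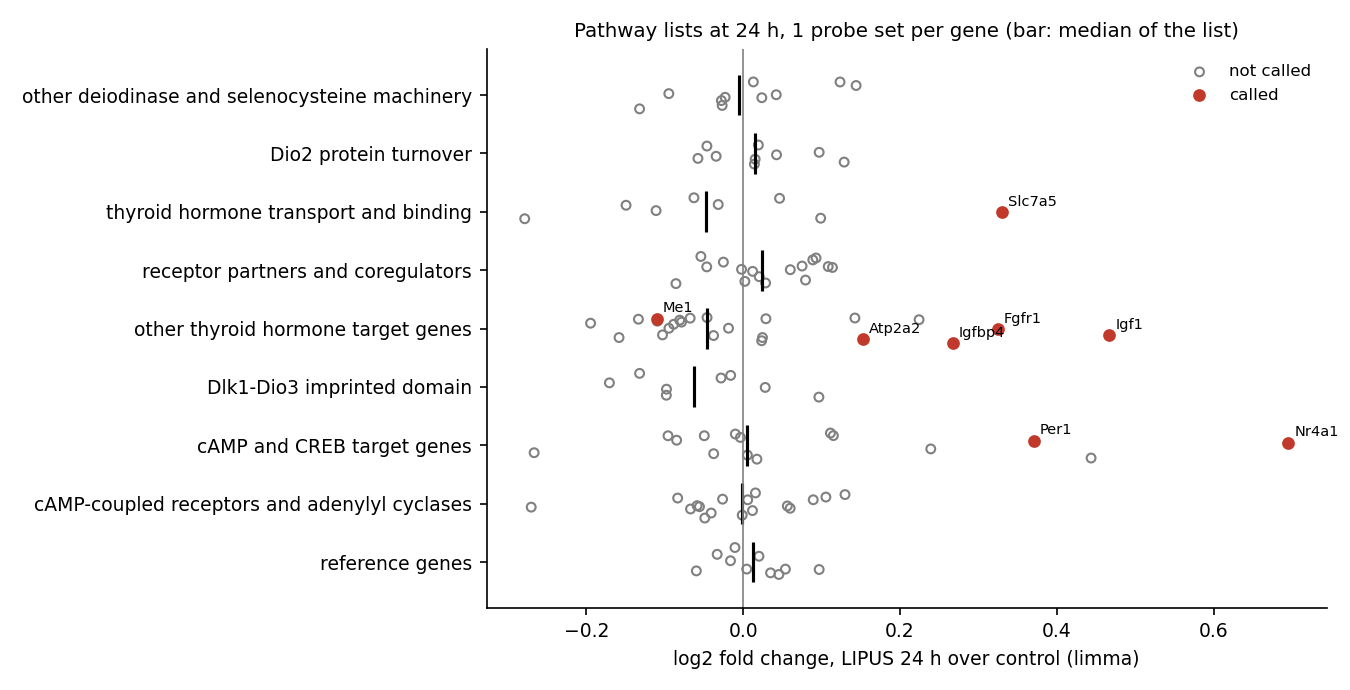
Log2 fold change of LIPUS 24 h over control from limma (horizontal axis) for the genes of the 8 pathway lists and of the reference genes (rows), 1 probe set per gene, with filled points for an adjusted p under 0.05 and a black bar at the median of each list. Medians lie between -0.06 and 0.02, and the 8 filled points stand in 3 of the lists.

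A bulk culture cannot tell fewer cells of a type from less RNA per cell, and markers of other cells were counted for this reason. At 24 h 0 of 6 adipocyte, 0 of 7 skeletal muscle and 0 of 7 macrophage markers changed, and 4, 5 and 5 of them were below the array median on all arrays. Beside them 4.14% of all genes changed, a share at which lists this short often hold none. Median log2 fold changes were -0.13 (adipocyte, lowest gene -0.63), -0.004 (muscle), -0.02 (macrophage) and -0.11 (chondrocyte), beside 0.001 over all genes. Of 7 chondrocyte markers 1 changed, with 2 of the 7 below the array median on all arrays. That gene was *Col2a1*, the cartilage collagen, which was lower by 0.82 on the log2 scale, with ratios of -0.83, -0.79 and -0.84 (limma adjusted p = 9e-05), and its part in the values of *Dio2* was not tested.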

How the data were processed

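Total RNA of 9 MC3T3-E1 samples was hybridized by the authors to Affymetrix mouse genome arrays. The deposited values are log2 signals that the authors made with RMA, whose version and settings are not given in the sources used here, and they were used without further change. The 64 control probe sets were left out, which left 45037. The platform annotation, with symbols brought up to date by gene identifier, gave 1 symbol for 34945 of them, several for 932 and none for 9160.

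Levels were compared with limma 3.58.1 in R 4.3.3 (lmFit, and eBayes with a trend on intensity), fitting the 9 arrays together with experiment as a block term, and Benjamini-Hochberg adjustment ran over all probe sets. The study took ratios within each of 3 experiments, deviations of arrays with the same number correlated at 0.701 to 0.933, and 9 of 9 arrays were closest to an array of their own number, so the arrays were paired by it. Values shared by the 3 arrays, at 36.3% and 28.1% of probe sets in experiments 2 and 3, enter these correlations and the spread that limma estimates. Their effect on the pairing and on the p-values was not tested. In experiment 1, with 0.224% shared, the correlations were 0.701 to 0.851. The fit left 4 residual degrees of freedom. Precision is limited by 3 arrays in each group. The procedure was also run on simulated arrays with independent noise, which lack most of the shared values of experiments 2 and 3. That run cannot show how such values affect the calls.

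The members and the gene lists were chosen with earlier results of these data known. Lists used, for each gene, the probe set with the highest mean. Named genes were every probe set of the members, the changed genes of each pathway list (up to 5, or the 2 of highest mean where none changed), the 5 genes most like and the 5 most unlike *Dio2* in pattern, and *Actb*, and genes named outside this rule are said to be so or are the marker or neighbour that a sentence turns on. Promoters were RefSeq windows of GRCm38.p6, of which the 250 bases before the start site were searched on both strands, TATA boxes on the strand of the gene. No entry for *Thra* or *Hr* was used. Alternatives changed the block, the trend, the arrays and probe sets included, the normalization, the test and the ratio.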

Additional observations from a re-analysis of the deposited data

Results flagged for a closer look

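Cells at LIPUS 24 h were compared with cells at LIPUS 6 h by limma, in the fit of all 9 arrays, so that the control arrays add to the estimate of the spread. In this comparison LIPUS and the longer culture cannot be told apart. Levels differed at 9 named probe sets outside *Dio2*. Except for *Klf9* and *Hr*, these genes were named for their difference at 24 h from control, on the same arrays at 24 h, so their number was largely set by that choice. On the log2 scale LIPUS 24 h was above LIPUS 6 h by 0.20 for *Klf9* 1428288_at (adjusted p = 0.011), 0.33 for *Slc7a5* (adjusted p = 0.00156), 0.33 for *Igf1* (adjusted p = 0.00477), 0.19 for *Fgfr1* (adjusted p = 0.0399), 0.31 for *Igfbp4* (adjusted p = 0.011), 0.16 for *Atp2a2* (adjusted p = 0.0176) and 0.68 for *Nr4a1* (adjusted p = 0.00304). The log2 difference of LIPUS 24 h from LIPUS 6 h was -0.39 for *Hr* 1435950_at (adjusted p = 0.0442) and -0.84 for *Col2a1* (adjusted p = 8.7e-05). *Me1* and *Per1*, which changed at 24 h against control, did not pass it (adjusted p = 0.0552 and 0.125 with limma).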

How the results depend on the processing

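The mean log2 ratio of LIPUS 24 h to control of *Dio2* 1418937_at, which selected the gene, lay between 1.72 and 1.77, where changes of the fit alone cannot move it. It lay between 0.89 and 1.07 for 1426081_a_at and between 0.26 and 0.48 for 1418938_at. Counts depended on the processing. Without the replicate block, that is with unpaired arrays, limma called 1 probe set at 24 h against control in place of 1229, 0 against LIPUS 6 h in place of 909, 0 of the 13 other member probe sets in place of 2 and 0 of 106 pathway genes in place of 8. Without the intensity trend the counts were 522, 354, 0 and 4, and with only the arrays of the 2 groups compared 5, 8, 0 and 0. Keeping the brightest 40% of probe sets gave 1914 at 24 h against control and 1384 against LIPUS 6 h. The methods' t-test and the paired test gave 0 in both comparisons, and 351 and 2355 at an unadjusted p under 0.05 at 24 h against control. Leaving out each experiment in turn gave 0 to 1439 probe sets at 24 h against control, 0 to 1498 against LIPUS 6 h, 0 to 38 at 6 h, 0 to 3 of the other member probe sets and 0 to 8 pathway genes. At 24 h the counts of 0 over all probe sets came without experiment 1, where experiment 2 left out gave 49 and 44, and the counts of 0 for members and pathway genes came without experiment 1 or 2. A ratio of 1.5 in all 3 experiments held for 59 probe sets, a ratio of 1.3 for 200 and of 2 for 11, and without 1 experiment for 77 to 97. Of the calls at 24 h 65.8% were higher, and 56.4% after quantile normalization. *Klf9* 1428288_at kept its call under 4 of 9 alternatives and *Hr* 1435950_at under 1 of 8, with no change of sign. Of all values for single probe sets and list medians, these included, 402 stayed on their side of the threshold or within their spread, 52 lost the call, 5 gained one and 13 moved, the last being medians of lists. Most of the 402 were never called or were medians, and so had no call to lose. All 52 losses fell on *Klf9* 1428288_at, *Hr* 1435950_at and the 8 called pathway genes. Each of these lost its call under at least 4 alternatives. Dim probe sets limit what can be said of *Thrb*, and the cause of these shifts was not tested.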
